A study of Mus musculus with 21 samples.

Results

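Dendritic cells were taken as the cells that carried the label Dendritic in the authors' annotation after integration of the samples with Harmony. The label was given to 3658 of 87822 cells (4.17%), which made dendritic cells number 6 by size among the 10 immune types of that annotation. Single-cell RNA sequencing was done on tibialis anterior muscles of female C57Bl/6J mice aged 20 months, with 1 mouse per sample. The muscles were either uninjured (4 mice) or taken at 1 day post-injury (dpi, 4 mice), 2 dpi (3 mice), 3.5 dpi (4 mice), 5 dpi (3 mice) or 7 dpi (3 mice) after injection of notexin, a snake venom phospholipase that destroys myofibers. Muscles were digested to single cells, which were captured with 10x Chromium v3 reagents. Shares therefore describe the cells recovered by this preparation. The question addressed here was how many dendritic cells were recovered at each time after injury, and how their per-cell measures varied.

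Dendritic cells take up material in tissues, carry it to draining lymph nodes and present it as antigen to T cells. They include conventional types that arise from precursors dependent on the receptor Flt3, among them the cross-presenting cells that carry Xcr1, and monocyte-derived cells, for which Cd209a is a common marker. In injured muscle they occur beside neutrophils, monocytes and macrophages, which clear debris before the myofibers are rebuilt.

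Per-gene values were not used here, so that Cd209a, Xcr1 and Flt3 could not be looked at and the label was taken as given. What could be compared were the labels that the same cells received after 2 other integrations. Of the 3658 dendritic cells, 3375 (92.3%) were also labelled dendritic after integration with BBKNN and 3240 (88.6%) after integration with Scanorama. All 3 methods gave the label to 3155 (86.2%). A further column of labels, called prefilter by the authors, named 3164 of them (86.5%) dendritic, 326 (8.91%) inflammatory monocytes and 123 (3.36%) B cells. The libraries held between 5602464 UMIs (unique molecular identifiers, each standing for 1 captured transcript) in uninjured replicate D and 70730171 in 3.5 dpi replicate C. Dendritic cells contributed 28413545 UMIs in all. Across the 21 libraries, 966 cell barcodes occurred in more than 1 mouse. No pair of libraries shared more than 0.418% of the barcodes of the smaller library, and 1 barcode of a dendritic cell was that of a dendritic cell in another mouse. In 4 libraries, replicates C and D at 1 and at 3.5 dpi, 98.2 to 98.5% of reads had a valid barcode, against 96.9 to 98.1% in the other 17. Calls that changed without these 4 are given both ways.

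Dendritic cells were rare in uninjured muscle and made up several percent of the recovered cells at every time after injury. In uninjured muscle 3 of 2267 cells of replicate A were dendritic (0.132%, exact Clopper-Pearson 95% interval 0.0273 to 0.386%), 12 of 3413 of replicate B (0.352%, 0.182 to 0.613%), 6 of 5029 of replicate C (0.119%, 0.0438 to 0.26%) and 0 of 974 of replicate D (interval up to 0.378%). At 1 dpi the shares were 3.95% (3.27 to 4.72%), 2.09% (1.36 to 3.07%), 6.2% (5.52 to 6.95%) and 4.51% (3.87 to 5.21%) in replicates A to D. The lowest of these lay above the highest uninjured share, and the intervals, which cover counting error only, did not overlap those of any uninjured mouse. At 2 dpi the shares were 5.67% (5.24 to 6.13%), 5.74% (5.09 to 6.45%) and 3.58% (2.96 to 4.29%) in replicates A to C. The 4 mice at 3.5 dpi had 3% (2.43 to 3.66%), 2.96% (2.35 to 3.69%), 6.17% (5.6 to 6.77%) and 3.98% (3.39 to 4.64%) in replicates A to D. At 5 dpi the shares were 8.18% (7.45 to 8.94%), 4.67% (4.23 to 5.15%) and 5.24% (4.42 to 6.15%). The 3 mice at 7 dpi had 1.89% (1.56 to 2.27%), 3.25% (2.74 to 3.83%) and 4.51% (3.69 to 5.44%). All 17 injured mice lay above all 4 uninjured mice, and among the injured time points only 5 and 7 dpi did not overlap.

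**Figure D1:**
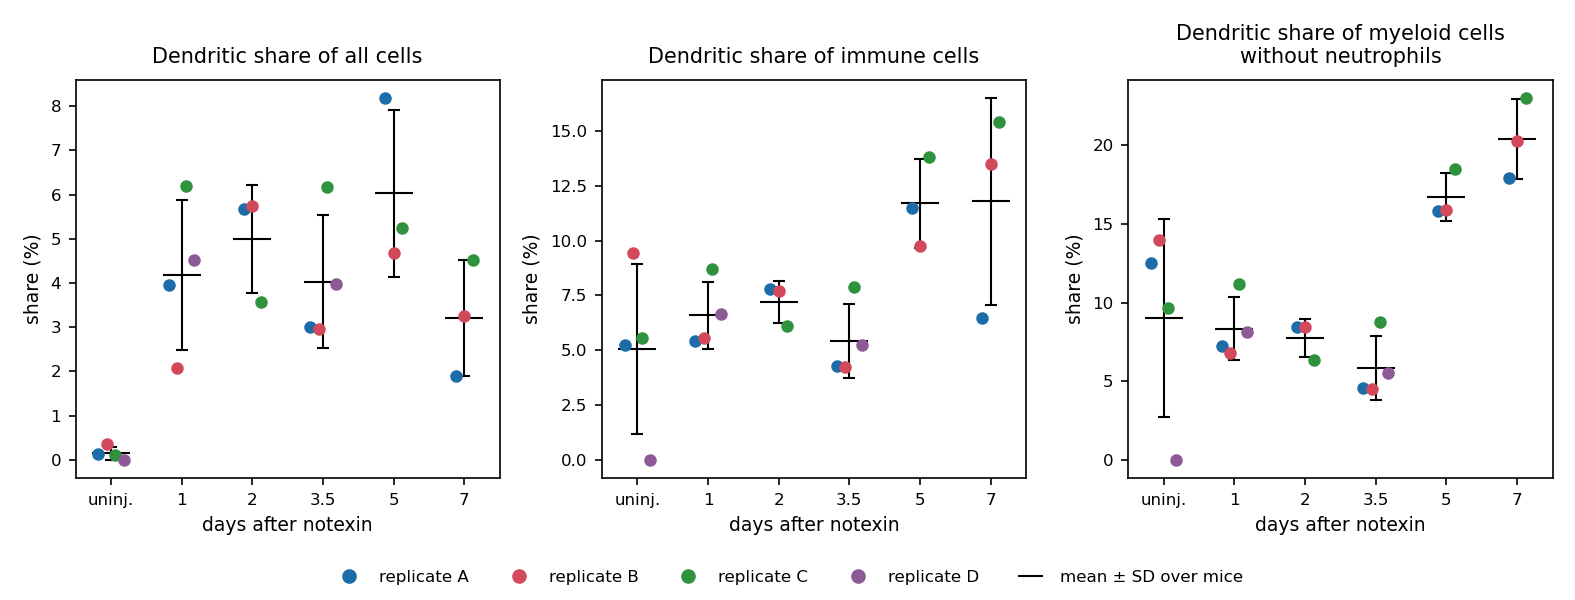
Dendritic share of all cells, of immune cells and of myeloid cells without neutrophils, in percent (y axis), by days after notexin (x axis, uninj. for uninjured). Each point is 1 mouse, coloured by replicate letter, and bars are the mean ± SD over mice. Of all cells, every injured mouse lies at 1.89% or above and every uninjured mouse at 0.352% or below, and of myeloid cells without neutrophils the mice at 5 and 7 dpi lie between 15.8 and 23%.

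The mean share was 0.151% ± 0.147 in uninjured muscle (SD, n = 4), 4.19% ± 1.7 at 1 dpi (n = 4), 5% ± 1.23 at 2 dpi (n = 3), 4.03% ± 1.5 at 3.5 dpi (n = 4), 6.03% ± 1.88 at 5 dpi (n = 3) and 3.22% ± 1.31 at 7 dpi (n = 3). The share changed with time (F = 17 after an arcsine square root transformation, permutation p = 0.00017, adjusted p = 0.000355 by the Benjamini-Hochberg method over 23 cell types). The largest difference of means from uninjured muscle was 5.88 percentage points, at 5 dpi. Calls were frequent in this comparison, with 18 of 23 types (78.3%) past the threshold of 0.05, and dendritic cells were number 11 by p. A share falls when other types rise, so that the test speaks of the composition of the recovered cells and not of the number of cells in the muscle.

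Taken against uninjured muscle 1 time point at a time, the dendritic share was higher by 4.04, 4.85, 3.88, 5.88 and 3.07 percentage points at 1, 2, 3.5, 5 and 7 dpi. All mice of each time point lay above all 4 uninjured mice. Two-sided exact permutation tests gave p = 0.0286 at each time point, the smallest value that 4 or 3 mice against 4 can give. After adjustment over the 115 tests of 23 types and 5 time points this became 0.0505, so that none of the 5 comparisons passed the threshold for dendritic cells. By this exact test 0 of 23 types (0%) were called at each of the 5 time points. Without adjustment 10 (43.5%), 11 (47.8%), 19 (82.6%), 13 (56.5%) and 12 (52.2%) of the 23 types had a p under 0.05, in order of time, dendritic cells among them each time. The quasi-likelihood test of edgeR on the numbers of cells with TMM scaling called 15, 19, 19, 17 and 13 types at the 5 time points. It gave dendritic cells log2 fold changes of 4.77, 4.89, 4.94, 4.38 and 3.55 with adjusted p between 7.32e-08 and 2.30e-05. Without TMM it called 15, 19, 19, 16 and 11 types. The 5 comparisons share the same 4 uninjured mice and are not independent of each other. Without 1 dpi replicate B, the exact test at 1 dpi gave 4.74 percentage points with an adjusted p of 0.0483, within a range of 1.23e-07 to 0.18 over the alternatives for that time point. The exact p for dendritic cells stayed at its smallest value without this mouse, so that the adjusted p moved only with the other types.

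Among immune cells alone, which are the myeloid and lymphoid cells together, dendritic cells had a less clear time course. The 3897 cells without a Harmony label, up to 11.3% of a library (2 dpi replicate A), were counted neither as immune nor as myeloid. Uninjured muscle held few immune cells, and the dendritic share of them was 5.26% (95% interval 1.1 to 14.6%) of 57 cells in replicate A, 9.45% (4.98 to 15.9%) of 127 in replicate B, 5.56% (2.07 to 11.7%) of 108 in replicate C and 0 of 24 cells in replicate D (interval up to 14.2%). The shares were 5.4, 5.57, 8.72 and 6.67% in replicates A to D at 1 dpi, and 7.78, 7.71 and 6.12% in replicates A to C at 2 dpi. They were 4.29, 4.26, 7.87 and 5.26% in replicates A to D at 3.5 dpi. They were 11.5, 9.77 and 13.8% at 5 dpi and 6.47, 13.5 and 15.4% in replicates A to C at 7 dpi. The mice at 5 dpi lay above all mice at 1, 2 and 3.5 dpi, whereas 7 dpi replicate A lay among those earlier mice and uninjured replicate B nearly reached the lowest mouse at 5 dpi.

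The means ran from 5.07% ± 3.88 in uninjured muscle (n = 4) through 6.59% ± 1.53 (n = 4), 7.2% ± 0.935 (n = 3) and 5.42% ± 1.7 (n = 4) at 1, 2 and 3.5 dpi to 11.7% ± 2 at 5 dpi (n = 3) and 11.8% ± 4.68 at 7 dpi (n = 3). The largest difference from uninjured muscle was 6.7 percentage points. The permutation test over the 6 time points gave F = 2.5, p = 0.0473 and an adjusted p of 0.0591 over 10 immune types, and 7 of 10 types (70%) passed the threshold, dendritic cells not among them. Single mice decided the side of the threshold. The difference was 8.16 points with an adjusted p of 0.00471 without uninjured replicate B, 5.01 points and 0.0226 without uninjured replicate D, and 9.35 points and 0.0226 without 7 dpi replicate A, within a range of 2.40e-05 to 0.454 over 35 alternatives. Untransformed shares gave an adjusted p of 0.0206. In injured mice alone, an alternative chosen after seeing the data, the difference between 7 and 3.5 dpi was 6.35 points (permutation test over the 5 time points, adjusted p = 0.0179).

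The labels of the uninjured cells also mattered. BBKNN labelled 44 and Scanorama 37 uninjured cells dendritic, against 21 by Harmony, and 19 of these 21 were dendritic by all 3 methods. Of the 44 BBKNN cells, Harmony had labelled 12 inflammatory monocytes and 8 M2 macrophages (Cx3cr1_lo). With BBKNN labels the mean share of immune cells was 13.1% ± 5.41 in uninjured muscle (n = 4), 5.31% ± 1.52 at 1 dpi (n = 4), 4.62% ± 2.13 at 3.5 dpi (n = 4) and 13.8% ± 5.17 at 7 dpi (n = 3). The largest difference from uninjured muscle was then at 3.5 dpi, with −8.48 points (permutation test, adjusted p = 0.00201). With Scanorama labels it was −7.66 points at 3.5 dpi (adjusted p = 0.0111). The means at 7 dpi and in uninjured muscle were then close, with 13.8 and 13.1% by BBKNN and 11.6 and 12% by Scanorama. The mean at 7 dpi was above that at 3.5 dpi by all 3 sets of labels. It was 11.8 against 5.42% by Harmony, 13.8 against 4.62% by BBKNN and 11.6 against 4.33% by Scanorama.

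Monocytes and macrophages are the cells that dendritic cells most resemble, and the dendritic share of the myeloid cells without neutrophils was higher at 5 and 7 dpi than at the earlier times after injury. In uninjured muscle it was 12.5% of 24 cells (95% interval 2.66 to 32.4%), 14% of 86 cells (7.42 to 23.1%), 9.68% of 62 cells (3.63 to 19.9%) and 0 of 10 cells (interval up to 30.8%). It was 7.26, 6.81, 11.2 and 8.13% in replicates A to D at 1 dpi, 8.47, 8.42 and 6.38% at 2 dpi, and 4.56, 4.54, 8.8 and 5.52% in replicates A to D at 3.5 dpi. At 5 dpi it was 15.8, 15.9 and 18.5%, and at 7 dpi 17.9, 20.3 and 23%. With these Harmony labels all 6 mice at 5 and 7 dpi lay above all 11 mice at 1, 2 and 3.5 dpi and above all 4 uninjured mice, whose intervals reached into the same range. The share changed over time with Harmony labels (permutation test, adjusted p = 0.0119, 11.4 percentage points higher at 7 dpi than in uninjured muscle, and 12.3 points with all myeloid cells as denominator, adjusted p = 0.0033, chosen after seeing the data). The difference from uninjured muscle was not kept with the labels of the other methods, an alternative chosen after seeing the data. By BBKNN the uninjured shares were 28.6, 31.7, 18.9 and 22.2% in replicates A to D, from 2 to 26 dendritic cells, and those at 7 dpi 21.7, 22.3 and 25.5%. By Scanorama they were 19, 24.1, 16.1 and 30% and 16.6, 18.6 and 22.3%. The largest difference from uninjured muscle was then −20.4 points by BBKNN and −17.7 by Scanorama, both at 3.5 dpi (permutation tests, adjusted p = 2.40e-05 and 3.00e-05). What held by all 3 sets of labels was the order after injury. The 6 mice at 5 and 7 dpi had 15.8 to 25.5% by BBKNN and 13.8 to 22.3% by Scanorama, and the 11 earlier mice 3.27 to 9.28% and 2.87 to 11.1%.

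The numbers of dendritic cells were next set against each of the other 9 immune types of the same mouse, as the log2 of their ratio with 0.5 cells added to both numbers. All 9 ratios changed over the 6 time points (permutation tests, adjusted p between 9.00e-05 and 0.0102 over the 9 ratios). So did 88 of 90 (97.8%) with each of the 10 immune types in turn set against the others, and 79 of 81 (97.5%) with the 9 other types, a comparison added after seeing the data. Each pair of types enters these counts in both directions, and the 81 ratios include those to dendritic cells. The count for dendritic cells is near this background, which is thus not independent of it. Against inflammatory monocytes, the classical monocytes that enter from the blood, the log2 ratio was −2.34, −2.50, −1.63 and −2.35 at 1 dpi in replicates A to D. This is 17.4 to 32.3 dendritic cells per 100 monocytes. At 5 dpi it was 0.31, 0.47 and 0.64 and at 7 dpi 0.30, 0.80 and 0.46, or 123 to 175 dendritic cells per 100 monocytes. Dendritic cells were thus fewer than inflammatory monocytes in all 11 mice at 1, 2 and 3.5 dpi and more numerous in all 6 mice at 5 and 7 dpi (means −2.20 ± 0.39, n = 4, at 1 dpi and 0.52 ± 0.26, n = 3, at 7 dpi, permutation test, adjusted p = 0.00015).

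**Figure D2:**
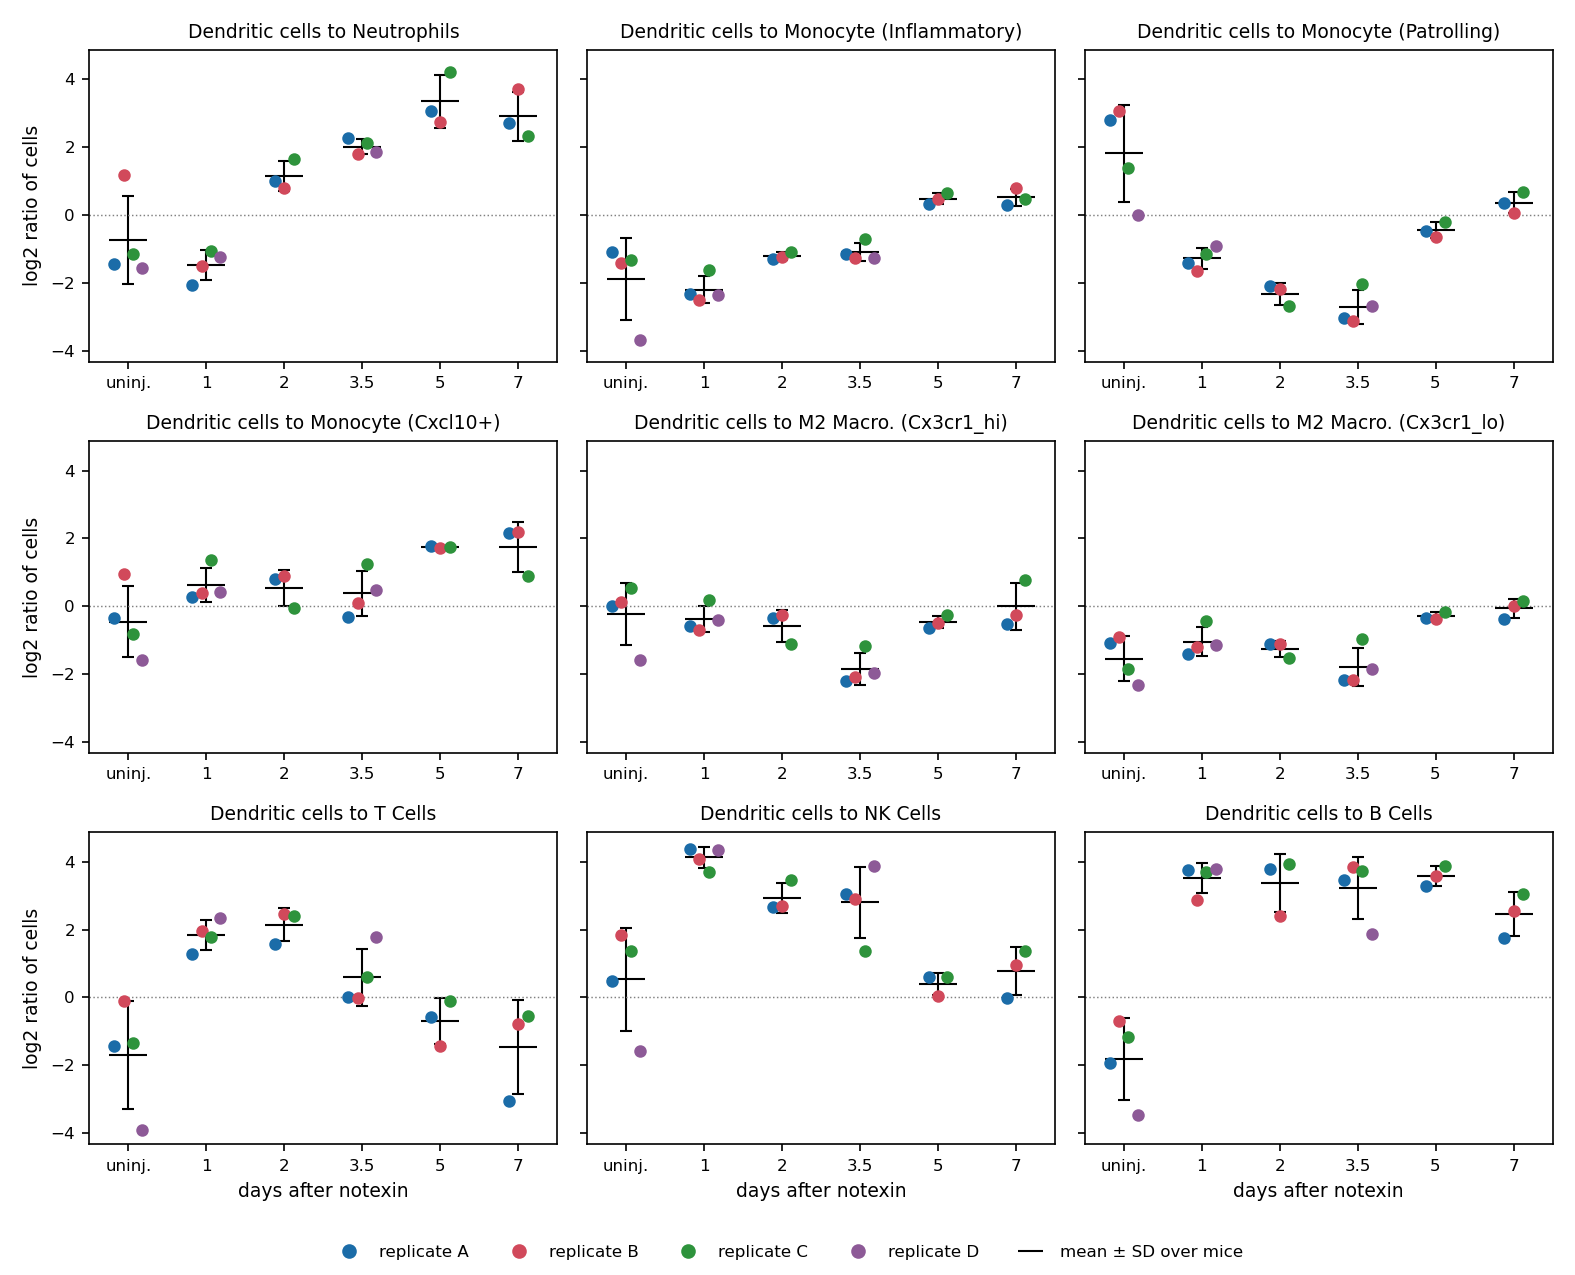
Log2 ratio of dendritic cells to each of 9 other immune types (y axis, 0.5 cells added to both numbers) by days after notexin (x axis). Each point is 1 mouse, coloured by replicate letter, bars are the mean ± SD over mice, and the dotted line marks equal numbers. Against inflammatory monocytes the mice at 5 and 7 dpi lie between 0.30 and 0.80 and those at 1 dpi between −2.50 and −1.63.

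Patrolling monocytes, described in the study as high in Fabp5 and negative for Cx3cr1 and Ly6c2, went through a wider swing. The log2 ratio of dendritic cells to them was −1.28 ± 0.32 at 1 dpi (n = 4), −2.33 ± 0.32 at 2 dpi (n = 3), −2.72 ± 0.50 at 3.5 dpi (n = 4), −0.44 ± 0.22 at 5 dpi (n = 3) and 0.37 ± 0.31 at 7 dpi (n = 3) (permutation test, adjusted p = 9.00e-05). At 3.5 dpi there were 11.3 to 24.5 dendritic cells per 100 patrolling monocytes, and at 7 dpi 105 to 162. The uninjured mean of 1.81 ± 1.42 (n = 4) rests on 0, 1, 2 and 0 patrolling monocytes in the 4 mice and on the cells added.

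Against the M2 macrophages, the macrophage types associated with repair, the ratio was lowest at 3.5 dpi. For the Cx3cr1_hi type it was −1.87 ± 0.47 at 3.5 dpi (n = 4) and −0.01 ± 0.70 at 7 dpi (n = 3) (permutation test, adjusted p = 0.0102). For the Cx3cr1_lo type it was −1.79 ± 0.56 (n = 4) and −0.06 ± 0.27 (n = 3) (adjusted p = 0.00135). The Cx3cr1_lo difference between these time points had the opposite sign with Scanorama labels (−0.35). The Cx3cr1_hi call was lost with 0.1 cells added (1.87, adjusted p = 0.179, within a range of 8.00e-05 to 0.179 over its alternatives). Against Cxcl10+ monocytes, named for an interferon-induced chemokine, the mean was −0.46 ± 1.06 in uninjured muscle (n = 4), 0.61 ± 0.50 at 1 dpi (n = 4) and 1.75 ± 0.03 at 5 dpi (n = 3) (permutation test, adjusted p = 0.00576), a call that a stricter filter on cells removed (adjusted p = 0.159, range 0.000465 to 0.159). This filter set limits of 1000 genes, 2000 UMIs and a mitochondrial share of 15% per cell.

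Neutrophils, the earliest cells to enter injured tissue, outnumbered dendritic cells in all 4 mice at 1 dpi, with 23.8 to 47.7 dendritic cells per 100 neutrophils and a mean log2 ratio of −1.47 ± 0.44 (n = 4). By 2 dpi the order was the opposite, with ratios of 1.01, 0.80 and 1.65 in replicates A to C, and at 5 dpi the mean was 3.34 ± 0.78 (n = 3) (permutation test, adjusted p = 0.00015). The ratios to T and NK cells were lower late than early after injury. To T cells, the cells to which dendritic cells present antigen, it was −1.70 ± 1.59 in uninjured muscle (n = 4), 1.84 ± 0.44 at 1 dpi (n = 4) and 2.15 ± 0.49 at 2 dpi (n = 3), and −0.71 ± 0.68 at 5 dpi (n = 3) and −1.47 ± 1.39 at 7 dpi (n = 3) (permutation test, adjusted p = 0.00045). All 7 mice at 1 and 2 dpi had more dendritic cells than T cells, with 245 to 550 per 100 T cells, and all 6 mice at 5 and 7 dpi had fewer, with 11.9 to 92.7. To NK cells the mean ratio was 4.14 ± 0.31 at 1 dpi (n = 4) and 0.40 ± 0.32 at 5 dpi (n = 3) (permutation test, adjusted p = 0.000306). To B cells it was −1.82 ± 1.21 in uninjured muscle (n = 4) and 2.45 to 3.58 on average at the 5 times after injury (adjusted p = 0.000306).

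The share of dendritic cells that BBKNN also labelled dendritic changed with time. In mice with at least 10 dendritic cells, BBKNN also called 73.9, 92, 89 and 83.2% of them dendritic at 1 dpi in replicates A to D, 93.8, 96.2 and 94.7% at 2 dpi and 73.4, 74.4, 93.3 and 87.7% at 3.5 dpi. The values were 97, 94.9 and 97.8% at 5 dpi and 100, 94.9 and 99% at 7 dpi. Every mouse at 5 and 7 dpi was above every mouse at 1 and 3.5 dpi, and the match was on average 15.8 percentage points higher at 7 than at 3.5 dpi (permutation test over the 5 time points, adjusted p = 0.0127, 17 mice). This difference was 24.1 points without replicates C and D at 1 and 3.5 dpi, an alternative chosen after seeing the data (adjusted p = 0.0214, range over the alternatives 0.0041 to 0.0446).

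The cells without a match carried labels of monocytes and macrophages in part. BBKNN called 82 of the 594 dendritic cells at 1 dpi (13.8%) inflammatory monocytes, and 82 of the 743 at 3.5 dpi (11%) M2 macrophages (Cx3cr1_hi). Scanorama called 104 of the 743 dendritic cells at 3.5 dpi (14%) patrolling monocytes. For Scanorama the match was 63.8, 71.8, 89.9 and 82.6% in replicates A to D at 3.5 dpi and 94, 89.6 and 95% at 5 dpi. The change over the 5 time points, with 15.9 points between 5 and 3.5 dpi, did not pass the threshold (permutation test, adjusted p = 0.0737). It did so without 2 dpi replicate A (15.9 points, 0.0445) or without 3.5 dpi replicate C (20.1 points, 0.0281), within a range of 0.0281 to 0.273 over the alternatives.

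Per-cell measures were compared through the median over the dendritic cells of each mouse, for mice with at least 10 such cells. In uninjured muscle this held for replicate B alone, so that the tests compare 17 mice at the 5 times after injury. Of 14 measures, 12 could be tested, since the medians of snoRNA and miRNA were 0 in every mouse. Of these, 6 of 12 passed the threshold, beside 100 of 278 (36%) over all cell types and measures. The shares of snRNA, whose median was 0 in all but 1 injured mouse, of bplncRNA and of antisense genes did not pass (permutation tests, adjusted p = 1, 1 and 0.354). The share of UMIs from long intergenic noncoding RNA genes (lincRNA) rose. Its median was 1.16, 1.23, 1.16 and 1.07% at 1 dpi in replicates A to D, 1.21, 1.1 and 1.45% at 2 dpi and 1.21, 1.23, 1.56 and 1.36% at 3.5 dpi. It was 1.79, 1.7 and 2.15% at 5 dpi and 1.76, 2.19 and 2.33% at 7 dpi, so that all 6 mice at 5 and 7 dpi lay above all 11 earlier mice. The mean went from 1.16% ± 0.0674 at 1 dpi (n = 4) to 2.09% ± 0.297 at 7 dpi (n = 3) (permutation test, adjusted p = 0.00447 over the 278 tests). In the other myeloid cells of the same mice it was 1.16% ± 0.122 at 1 dpi (n = 4), 1.07% ± 0.148 at 3.5 dpi (n = 4) and 1.41% ± 0.194 at 7 dpi (n = 3).

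The share of UMIs from protein-coding genes, which belongs to the same total, was lowest at the same time. Its mean was 94.1% ± 0.826 at 1 dpi (n = 4), 93.1% ± 0.287 at 2 dpi (n = 3), 94.1% ± 0.25 at 3.5 dpi (n = 4), 92.2% ± 0.316 at 5 dpi (n = 3) and 91.7% ± 0.469 at 7 dpi (n = 3) (permutation test, adjusted p = 0.00139). All 6 mice at 5 and 7 dpi, at 91.3 to 92.6%, lay below all 11 earlier mice, at 92.9 to 94.8%. Both calls held in each of 30 alternatives. In the other myeloid cells of the same mice the protein-coding share was 94% ± 0.783 at 1 dpi (n = 4) and 91.5% ± 0.326 at 7 dpi (n = 3). It also changed with time in each of the other myeloid types (permutation tests, adjusted p between 0.00225 and 0.0296), so that the change was not particular to dendritic cells.

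The other 4 calls were less firm. The mitochondrial share was 3.53% ± 0.522 at 1 dpi (n = 4) and 5.25% ± 0.773 at 7 dpi (n = 3) (permutation test, adjusted p = 0.0353, range over the alternatives 0.00152 to 0.121). This call was lost without 1 dpi replicate A (0.0651) or C (0.0599), 2 dpi replicate C (0.0507), 5 dpi replicate A (0.055) or B (0.0529), or 7 dpi replicate A (0.117) or C (0.0514). The mitochondrial difference was 1.72 points with all mice and 1.28 to 1.97 points on leaving out 1 mouse. In the other myeloid cells of the same mice the mitochondrial share was 3.17% ± 0.653 at 1 dpi (n = 4) and 6.77% ± 0.779 at 7 dpi (n = 3). The share of UMIs from ribosomal genes was 14.4% ± 0.928 at 1 dpi (n = 4) and 17.7% ± 0.27 at 5 dpi (n = 3) (permutation test, adjusted p = 0.0409, range 0.00705 to 0.339), with 13.8 to 15.7% in the mice at 1 dpi and 17.5 to 18% in those at 5 dpi. This call was lost without 1 dpi replicate A (0.0944), C (0.0969) or D (0.103), 2 dpi replicate B (0.0568), 3.5 dpi replicate A (0.0633), B (0.0691), C (0.0523) or D (0.07), 5 dpi replicate A (0.0635), B (0.067) or C (0.06), or 7 dpi replicate A (0.0554) or C (0.0502). On leaving out 1 mouse, the ribosomal difference of 3.39 points lay between 3.19 and 3.85 points. The share from transcription factor genes was 3.13% ± 0.348 at 3.5 dpi (n = 4) and 3.95% ± 0.0606 at 7 dpi (n = 3) (permutation test, adjusted p = 0.0274, range 0.0108 to 0.122), and 0.0511 without 3.5 dpi replicate B. The DoubletFinder score, the share of simulated doublets among a cell's neighbours, was 0.247 ± 0.0111 at 1 dpi (n = 4) and 0.171 ± 0.0287 at 5 dpi (n = 3) (permutation test, adjusted p = 0.00644, range 0.00412 to 0.0821). Without replicates C and D at 1 and 3.5 dpi together, an alternative chosen after seeing the data, 2 of the 6 calls were left, lincRNA (0.898 points, adjusted p = 0.0449) and protein-coding (1.77 points, 0.0186). The other 4 were lost, with differences between the time points above of 1.63 points for the mitochondrial share (0.0572), 2.84 for the ribosomal share (0.339), 1.03 for transcription factor genes (0.064) and 0.0856 for the doublet score (0.0821). The 4 calls were lost in 11, 14, 3 and 1 of 30 alternatives, in the same order.

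Depth per cell did not pass the threshold. The median number of UMIs was 13492, 15154, 9043 and 11358 in replicates A to D at 1 dpi and between 4196 and 11010 in the other injured mice, with means of 12262 ± 2649 at 1 dpi (n = 4) and 7164 ± 2521 at 5 dpi (n = 3) (permutation test, adjusted p = 0.256). The number of genes was 3064 ± 277 at 1 dpi (n = 4) and 2232 ± 484 at 5 dpi (n = 3) (adjusted p = 0.204). Without 5 dpi replicate B, the log2 difference between these time points was 0.50 in place of 0.82 for UMIs and 0.29 in place of 0.48 for genes. Heat shock genes took 0.751 to 0.881% of UMIs on average at the 5 time points (adjusted p = 0.87), and the difference of 0.13 points between 2 and 3.5 dpi was 0.0306 without 2 dpi replicate A and 0.204 without 2 dpi replicate C.

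Since libraries differ in depth, each measure was also taken relative to the other myeloid cells of the same mouse, and 7 of 12 measures changed over time in this comparison. With each of the 7 myeloid types in turn set against the others, a comparison added after seeing the data, it was 39 of 81 (48.1%), and 32 of 69 (46.4%) for the other 6 types, from 0 of 12 for patrolling monocytes to 9 of 11 for M2 macrophages (Cx3cr1_lo). With injured mice only, it was 42 of 81 (51.9%) and 35 of 69 (50.7%). The count for dendritic cells lies within the range of the other types. The level of such a difference is a description, because the cell types were defined from the same transcripts. The median UMIs of dendritic cells were 1.27, 1.35, 1.19 and 1.12 times those of the other myeloid cells in replicates A to D at 1 dpi, 0.942, 0.843 and 0.765 times at 2 dpi and 0.636, 0.611, 0.697 and 0.687 times at 3.5 dpi. They were 0.896, 0.782 and 0.905 times at 5 dpi and 1.14, 1.2 and 1.14 times at 7 dpi. Against all other myeloid cells together, dendritic cells thus held more UMIs in all 7 mice at 1 and 7 dpi and fewer in all 10 mice between, with the lowest ratios in the 4 mice at 3.5 dpi (permutation test, log2 difference of 0.91 between 1 and 3.5 dpi, adjusted p = 8.00e-05 over the 12 measures). Genes followed, with 1.12 ± 0.058 times at 1 dpi (n = 4), 0.734 ± 0.0429 times at 3.5 dpi (n = 4) and 1.05 ± 0.0398 times at 7 dpi (n = 3) (permutation test, adjusted p = 6.00e-05).

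The makeup of the other myeloid cells changed over the same days, and the medians of UMIs in these cells were 9884 ± 1607 at 1 dpi (n = 4), 13062 ± 3426 at 3.5 dpi (n = 4) and 6840 ± 1379 at 7 dpi (n = 3). With the monocyte and macrophage types given equal weight and neutrophils left out, an alternative chosen after seeing the data, the UMI ratio was 1.12 ± 0.141 at 1 dpi (n = 4), 0.722 ± 0.039 at 3.5 dpi (n = 4) and 1.13 ± 0.06 at 7 dpi (n = 3) (permutation test, adjusted p = 0.000715, range over the alternatives 3.67e-05 to 0.00258). At 2 dpi it was 0.919 ± 0.0824 (n = 3) and at 5 dpi 0.892 ± 0.0814 (n = 3). With this reference the mice no longer parted at equal UMIs, since 3 of 4 mice at 1 dpi were above 1 (lowest 0.984) and 1 of 3 at 2 dpi was (highest 1.01).

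**Figure D3:**
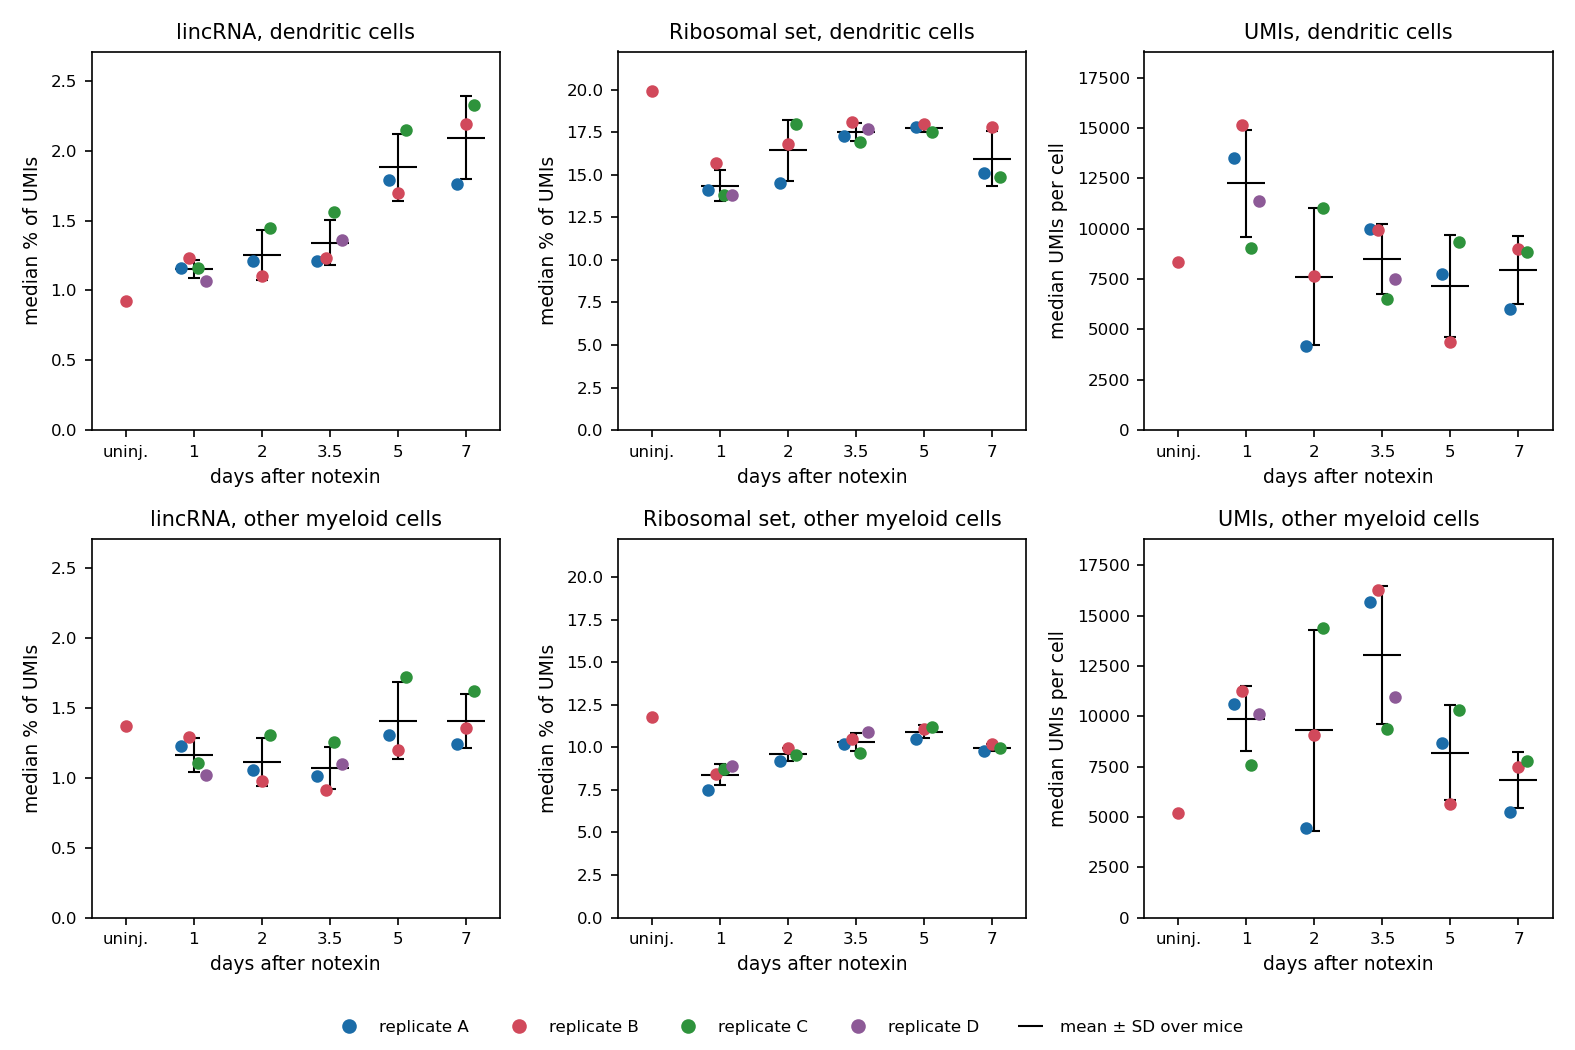
Median per mouse of the lincRNA share and the ribosomal share (percent of UMIs) and of the UMIs per cell (y axes), in dendritic cells (upper row) and in the other myeloid cells (lower row), by days after notexin (x axes). Each point is 1 mouse with at least 10 dendritic cells, and bars are the mean ± SD over mice. The dendritic lincRNA medians at 5 and 7 dpi lie between 1.7 and 2.33%, and those at 1 dpi between 1.07 and 1.23%.

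The lincRNA share parted from that of the other myeloid cells with time. At 1 dpi dendritic cells differed from them by −0.0745, −0.0551, 0.0512 and 0.051 percentage points in replicates A to D. The difference was 0.15, 0.125 and 0.148 points at 2 dpi, 0.197, 0.318, 0.294 and 0.263 points at 3.5 dpi, 0.48, 0.505 and 0.435 points at 5 dpi and 0.517, 0.829 and 0.713 points at 7 dpi. The change with time passed the threshold (permutation test, 0.693 points between 7 and 1 dpi, adjusted p = 6.00e-05, and 0.636 points and 0.00013 with the types weighted equally, range 3.67e-05 to 0.00258). Against all other myeloid cells, no time point overlapped with the next. With the types weighted equally, 1 dpi (−0.0902 to 0.14) and 2 dpi (0.0636 to 0.123) overlapped, as they did without neutrophils (0.0678 to 0.158 and 0.154 to 0.174). In uninjured replicate B, with 12 dendritic cells, the difference was −0.451 points.

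The mitochondrial share of dendritic cells was above that of the other myeloid cells in all 4 mice at 1 dpi, by 0.36 ± 0.161 points, and below it in all 3 mice at 7 dpi, with a mean difference of −1.52 ± 0.278 points (permutation test, n = 4 and 3, adjusted p = 0.00048). The value at 1 dpi depended on the reference. It was 0.149 ± 0.11 points without neutrophils (4 of 4 mice above) and 0.00791 ± 0.299 with the types weighted equally (3 of 4 mice above), both chosen after seeing the data. At 7 dpi it was −1.45 ± 0.296 and −1.38 ± 0.318 with the same references (n = 3). The call was lost with all other cells as reference (adjusted p = 0.107) or with a minimum of 5 cells (0.194, the highest over the alternatives, the lowest being 0.00012). That minimum adds uninjured replicates B and C as a further time point, with −5.57 and 0.872 points. Transcription factor genes had −0.435 ± 0.371 points at 1 dpi (n = 4) and 0.575 ± 0.0933 points at 2 dpi (n = 3) (permutation test, adjusted p = 0.000864, range 0.0004 to 0.0325). The mice at 1 dpi had −0.731, −0.772, −0.189 and −0.0461 in replicates A to D. The value at 1 dpi depended on the reference here too. It was −0.251 ± 0.343 points without neutrophils (2 of 4 mice above) and −0.297 ± 0.408 with the types weighted equally (1 of 4 mice above). The difference of 1.01 points between 2 and 1 dpi was 0.871 and 0.641 with these references (adjusted p = 0.00222 and 0.0325) and 1.33 without replicates C and D at 1 and 3.5 dpi (adjusted p = 0.00216), all 3 alternatives chosen after seeing the data. The protein-coding share differed by −0.563 ± 0.182 points at 2 dpi (n = 3) and 0.227 ± 0.172 points at 7 dpi (n = 3) (permutation test, adjusted p = 0.0107), a call lost with means over cells (0.617), without replicates C and D at 1 and 3.5 dpi (0.0964) and with the types weighted equally (0.275), the lowest over the alternatives being 4.00e-05. With the types weighted equally, the protein-coding difference was −0.312 ± 0.238 points at 2 dpi (n = 3) and 0.241 ± 0.168 points at 7 dpi (n = 3). The doublet score was 0.0608 ± 0.0346 (n = 4) above that of the other myeloid cells at 1 dpi and 0.11 ± 0.0238 (n = 3) above it at 7 dpi, and differed from it by −0.012 ± 0.0411 at 5 dpi (n = 3) (permutation test, adjusted p = 0.00132).

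Dendritic cells had a higher ribosomal share than the other myeloid cells in 17 of 17 injured mice, by 4.83 to 8.39 points with a median of 6.87, and a higher heat shock share in 17 of 17, by 0.09 to 0.437 points. In uninjured replicates A, B and C, with 3, 12 and 6 dendritic cells, the ribosomal difference was 11.1, 8.09 and 8.41 points and the heat shock difference 0.136, −0.0392 and −0.354 points. These are levels between cell types and were not tested, and neither difference passed the threshold over time (permutation tests, adjusted p = 0.523 and 0.68). The ribosomal difference did so with all other immune cells as reference (4.26 points, adjusted p = 0.0255, range 0.0255 to 0.739). The heat shock difference did so with a minimum of 5 cells (permutation test, adjusted p = 0.00828, range 0.00828 to 0.927). That minimum adds uninjured replicates B and C as a further time point, with −0.0392 and −0.354 points against 0.09 to 0.437 in injured mice. The ribosomal value of 1.27 points between 3.5 and 7 dpi was 2.09 without 7 dpi replicate B and 0.777 without 7 dpi replicate C. The heat shock value of 0.124 between 5 and 7 dpi was 0.0682 without 5 dpi replicate A and 0.203 without 5 dpi replicate C. For antisense genes, with a difference of 0.0148 points between 2 and 1 dpi, the change over the 5 time points had an adjusted p of 0.0513 (permutation test, range 0.00891 to 0.866). It passed without 2 dpi replicate A (0.0349), 3.5 dpi replicate B (0.0445) or 1 dpi replicate D (0.0107), and without replicates C and D at 1 and 3.5 dpi (0.0207 points, 0.026). Among all 23 types, ranked by the median over injured mice, dendritic cells were number 6 for the ribosomal share (16.9%), number 8 for UMIs (8977) and number 19 for the mitochondrial share (4.03%).

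Within time points, the dendritic share of all cells varied with the shares of other immune types. With the mean of each time point removed, it was correlated over 21 mice with inflammatory monocytes (Pearson's r = 0.789, Spearman's rho = 0.79, permutation p = 0.00121 and 0.00091, adjusted p = 0.0194 for both over 32 tests of 16 measures), patrolling monocytes (r = 0.725, rho = 0.652, p = 0.00363 and 0.011, adjusted p = 0.0299 and 0.048), neutrophils (r = 0.643, rho = 0.696, p = 0.012 and 0.00548, adjusted p = 0.048 and 0.0299) and NK cells (r = 0.647, rho = 0.555, p = 0.00508 and 0.0239, adjusted p = 0.0299 and 0.0629). It was also correlated with the share of cells without a label (r = 0.555, rho = 0.569, p = 0.0056 and 0.0294, adjusted p = 0.0299 and 0.0629). Without the 2 mice farthest from the median of the other measure, r was 0.71, 0.608, 0.732, 0.66 and 0.653 in the same order. In injured mice alone the relation with neutrophils did not pass (r = 0.667, permutation test, adjusted p = 0.0547). These shares have a common denominator, and as shares of immune cells none of the 16 relations passed the threshold in the same permutation test, with r = 0.0291 for inflammatory monocytes, 0.475 for patrolling monocytes, 0.311 for neutrophils and −0.0866 for NK cells. Of the library measures, the sequencing saturation (r = −0.544, rho = −0.509, permutation p = 0.0295 and 0.0446) and the share of reads in cells (r = 0.574, rho = 0.461, p = 0.0273 and 0.0683) had adjusted p of 0.0629 or more, and their part in the dendritic share was not tested further.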

How the data were processed

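The tables analysed were per-cell tables of 21 libraries, 1 mouse each. For these tables, made from 10x Chromium v3 libraries, the authors used Cell Ranger 3.1.0 with the mm10 genome, removed ambient RNA with SoupX, filtered cells with Seurat (version 3.1.5 per the processing notes), removed doublets with DoubletFinder and labelled clusters after Harmony, BBKNN and Scanorama. The deposited UMI totals per cell are expected counts, not whole after SoupX, and are not normalized. The numbers of genes, barcodes and mean reads are counts that the authors deposited. The deposited percent values are shares of a cell's UMIs from gene sets and, per library, Cell Ranger summaries. Fraction values, as deposited, are the contamination that SoupX estimated per library and each cell's DoubletFinder score. A minimum of 750 genes is given for the authors' filter, and 105 deposited dendritic cells lay below it, down to 504 genes. They were kept, and left out as an alternative.

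The mouse was the unit. Shares were compared as arcsine square roots by permutation of the F statistic (100000 resamples, smallest p 1e-05), and single time points by two-sided exact permutation tests. The p of an F statistic covers all time points compared. A difference between named time points given beside it is a size, and that pair was not tested by itself. Per-cell measures used medians per mouse with at least 10 cells of a type, and correlations used two-sided permutation within time points. Each family was adjusted by Benjamini-Hochberg at 0.05. Cell numbers were also tested with edgeR 4.0.16. Python 3.11.15, numpy 2.4.6, pandas 2.3.3, scipy 1.17.1, matplotlib 3.10.9 and R 4.3.3 were used, and the tests were tested on simulated data. The text names the 10 immune types, other labels that hold many dendritic cells, and all per-cell measures. Members, lists and tests were chosen with earlier results of these data known. Alternatives were other labels, denominators, transformations, filters, minimums, added cells, reference cells, a replicate block and leaving out each mouse.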

Additional observations from a re-analysis of the deposited data

Results flagged for a closer look

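In 6 of 83 groups of 4 mice (7.23%), a dendritic value of 1 mouse lay far from the other 3 for the range of the group. Chance gives this in about 1 of 20 groups, so that a number of this size carries little information.

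In uninjured muscle, replicate D had no dendritic cell and a log2 ratio to inflammatory monocytes of −3.70, against −1.10 to −1.42 in the others. Uninjured replicate B had a log2 ratio to neutrophils of 1.18, from 12 dendritic cells and 5 neutrophils, against −1.16 to −1.58. At 1 dpi, replicate B had a ratio to B cells of 2.87, against 3.71 to 3.79, and a ribosomal share of 15.7%, against 13.8 to 14.1%, from 25 dendritic cells. Replicate C at 1 dpi had a ratio to Cxcl10+ monocytes of 1.36, against 0.27 to 0.43. Replicate C at 3.5 dpi had a heat shock share of 0.801%, against 0.729 to 0.74%.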

How the results depend on the processing

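The dendritic share of all cells changed over time in each of 35 alternatives (adjusted p 1.68e-06 to 0.00353). Leaving out 1 mouse gave 4.85 to 6.55 points for its largest difference from uninjured muscle. At single time points the adjusted p of 0.0505 moved under 0.05 with at least 750 genes (4.4, 5.14, 3.92, 5.95 and 3.15 points at 1, 2, 3.5, 5 and 7 dpi, 0.0483), BBKNN labels (3.29, 4.59, 3.23, 6.42 and 3.58, 0.0488), the label by all 3 methods (3.31, 4.28, 3.02, 5.41 and 2.81, 0.049) and edgeR (log2 4.77, 4.89, 4.94, 4.38 and 3.55 with TMM, and 4.60, 4.85, 4.54, 5.12 and 4.21 without). In the exact tests among these, the p for dendritic cells was at its smallest value as before, so that the adjusted p moved only with the other types. Leaving out 1 mouse gave 3.36 to 4.74, 4.48 to 5.56, 3.16 to 4.23, 4.8 to 6.55 and 2.42 to 3.73 points.

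For the share of immune cells the largest difference was 5.01 to 9.35 points on leaving out 1 mouse, and past the threshold with untransformed shares (6.7), myeloid cells without neutrophils (11.4), all myeloid cells (12.3) and injured mice only (6.35), the last 2 chosen after seeing the data. With BBKNN and Scanorama labels, which name more uninjured cells dendritic, the largest difference was at another time and of the other sign (−8.48 and −7.66 at 3.5 dpi). At 7 dpi the means then lay close to uninjured muscle (13.8 against 13.1% and 11.6 against 12%). With these labels and myeloid cells without neutrophils, chosen after seeing the data, the largest difference was −20.4 and −17.7 at 3.5 dpi. The share had an adjusted p of 0.454 with the strict filter. All 9 log ratios were past the threshold in nearly all alternatives, with the exceptions named above, among them −0.35 for M2 macrophages (Cx3cr1_lo) with Scanorama labels. The Scanorama match passed on leaving out 2 mice in turn (range 11.5 to 20.1 points).

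Of 12 per-cell measures, 6 passed, 4 to 6 on leaving out 1 mouse and 2 without replicates C and D at 1 and 3.5 dpi together. Without these 4 the bplncRNA share reversed (−0.00197). It also reversed relative to other myeloid cells with means (−0.000379). The 5 correlations past the threshold were 0 with shares of immune cells, where r was −0.257 for B cells, −0.0866 for NK cells, −0.74 for T cells, −0.0131 for SoupX contamination and −0.356 for barcodes kept. Median UMIs gave r = −0.143 without the 2 farthest mice. The cause of these changes was not tested.

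Deviations from the group means were correlated over 0.1 in 20 of 48 pairs of mice with the same letter (median r −0.0228) and in 59 of 135 with other letters (0.0226), so that the letters were not taken as pairs. The study's reporting summary states that mice of several time points were collected at the same time, and its methods that each replicate was an experiment of its own. Collection days of single mice were not used here, and their part was not tested. The replicate block gave an adjusted p of 0.18 at every single time point, where swaps within a letter are too few for a p under 0.05. It also gave 0.186 for the share of immune cells, 0.0987 for the mitochondrial and 0.122 for the transcription factor share. For the Scanorama match it gave 0.042 (16.7 points). Of 1263 values under alternatives, 1161 kept direction and side of the threshold. The uninjured values rest on 21 dendritic cells, and whether depth limits them was not tested.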

Other observations

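The 503 dendritic cells that were not dendritic by all 3 methods came from 19 mice. Their median was 6289 UMIs, against 7198 in the 3155 cells with the label by all 3, their ribosomal share 13.7 against 16.5% and their mitochondrial share 4.61 against 3.94%. The quartiles of the ribosomal share were 11.4 and 16.7% in the former and 13.8 and 19.3% in the latter, so that the cells overlapped.

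The 123 dendritic cells with the prefilter label B cells came from 15 mice, 54 of them from 3.5 dpi and 45 of these from replicate C. Their mitochondrial share had a median of 7.2% (quartiles 5.78 and 8.14%), against 4.02% (2.79 and 5.98%) in all dendritic cells, and their lincRNA share 2.25% (1.79 and 2.73%), against 1.4% (0.955 and 2.12%). The 326 with the prefilter label inflammatory monocytes had 4.42% and 1.32%. These are values over cells and were not tested.

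At a fixed number of 7147 UMIs, the median of all dendritic cells, a fit of genes on UMIs gave means over mice of 2283, 2336, 2177, 2226 and 2175 genes at 1, 2, 3.5, 5 and 7 dpi, with single mice between 2117 and 2383.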
